A study of Homo sapiens with 2 samples.

Results

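Small structural RNA genes encode the RNAs of the spliceosome, the snoRNAs that guide rRNA modification, and other short stable RNAs. Accessible chromatin was examined at these genes in H1 human embryonic stem cells. Of 160327 distinct accessible regions in the deposited list, 294 had their strongest summit within 500 bp of a GENCODE gene of type snRNA, snoRNA, scaRNA or misc_RNA and more than 2 kb from the 5′ end of any protein-coding gene. Genes were separated by symbol into named genes and copies. Copies are symbols ending in P, family names carried by several entries, and entries with no symbol. Of the 294 regions, 68 lay at named genes, 223 at copies and 3 at 2 misc_RNA entries of neither kind.

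H1 is an established pluripotent line. Frozen cells were thawed, cleared of outside DNA with DNase I and purified over Ficoll, and their nuclei then went through Omni-ATAC; the labels name no other treatment or genotype. The 2 samples, numbered 1 and 2, form 1 group and share 1 list of regions. The labels do not say whether they came from separate cultures. The list holds no value per sample, so no spread between replicates exists for any value below. Comparisons are between kinds of gene within the list, and intervals are 95% exact binomial (Clopper-Pearson) intervals that cover counting error only.

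Most spliceosomal snRNA genes are short independent units with no intron. A distal sequence element, bound by factors such as POU2F1 and ZNF143, acts as an enhancer, and a proximal sequence element nearer the start is bound by the complex SNAPc. U1, U2, U4, U5, U11, U12 and U4atac are made by RNA polymerase II. U6, U6atac and 7SK have a similar promoter but are made by RNA polymerase III, for which a TATA box below the proximal element sets the choice. 7SL, Y and vault RNAs are also polymerase III products. Most human snoRNAs and scaRNAs lie in introns and are cut out of the host transcript, so they use the host gene's promoter, while U3, U8 and U13 have promoters of their own. Human chromosomes also carry many copies of these genes, many inserted by retrotransposition of the RNA, and such an insertion brings the RNA sequence but not the DNA upstream of the start.

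The upstream DNA of representative genes is shown for the element forms it holds. It stops short of many summits. The strongest summits upstream of named snRNA genes had a median position of -284 bp, beyond the printed stretch. Each sequence is from the GRCh38 genome, reads 5′ to 3′ on the gene's strand, and holds 260 bases before the annotated 5′ end and the first 20 of the RNA. Capitals mark letters that fit an element form. The forms were ATGCAAAT on either strand (octamer of the distal element), ACC and AA separated by 8 bases and starting 80 to 40 bp upstream (proximal element), TATA starting 36 to 20 bp upstream, and CCCA and ATGC separated by 2 bases on either strand (ZNF143-type). A match describes letters and is not evidence of binding. RNU5A-1, RNU4ATAC and RNU6-8 hold the octamer. RNU1-2, RNVU1-24 and RNU6ATAC hold the proximal form, RNU6-8 holds that form with a TATA box, RNY1 holds the ZNF143-type form, and RN7SL2 holds none of these forms.
RNU5A-1 (chr15:65295791-65296070, plus strand): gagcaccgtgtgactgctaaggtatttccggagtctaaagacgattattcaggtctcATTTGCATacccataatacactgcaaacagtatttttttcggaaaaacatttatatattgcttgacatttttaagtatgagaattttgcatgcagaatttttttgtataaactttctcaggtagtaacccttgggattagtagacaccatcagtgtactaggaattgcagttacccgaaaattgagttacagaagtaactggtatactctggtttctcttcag
RNU4ATAC (chr2:121530621-121530900, plus strand): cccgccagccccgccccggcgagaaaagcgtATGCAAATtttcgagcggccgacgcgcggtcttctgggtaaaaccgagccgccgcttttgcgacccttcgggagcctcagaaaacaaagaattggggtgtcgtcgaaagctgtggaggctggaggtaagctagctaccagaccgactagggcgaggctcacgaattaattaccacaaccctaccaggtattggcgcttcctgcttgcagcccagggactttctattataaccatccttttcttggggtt
RNU6-8 (chr14:32203250-32203529, minus strand): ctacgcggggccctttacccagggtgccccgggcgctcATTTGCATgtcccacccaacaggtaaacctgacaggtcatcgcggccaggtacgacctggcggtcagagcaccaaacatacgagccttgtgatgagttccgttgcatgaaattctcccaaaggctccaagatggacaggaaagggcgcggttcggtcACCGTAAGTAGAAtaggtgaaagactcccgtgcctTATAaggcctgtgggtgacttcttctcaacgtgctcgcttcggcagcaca
RNU6ATAC (chr9:134164545-134164824, minus strand): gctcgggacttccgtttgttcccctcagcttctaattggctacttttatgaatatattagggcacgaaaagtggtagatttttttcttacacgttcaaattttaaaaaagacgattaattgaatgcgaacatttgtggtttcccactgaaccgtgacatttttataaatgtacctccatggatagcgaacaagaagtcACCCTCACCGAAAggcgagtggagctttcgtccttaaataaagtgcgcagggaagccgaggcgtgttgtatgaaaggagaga
RNU1-2 (chr1:16895720-16895999, plus strand): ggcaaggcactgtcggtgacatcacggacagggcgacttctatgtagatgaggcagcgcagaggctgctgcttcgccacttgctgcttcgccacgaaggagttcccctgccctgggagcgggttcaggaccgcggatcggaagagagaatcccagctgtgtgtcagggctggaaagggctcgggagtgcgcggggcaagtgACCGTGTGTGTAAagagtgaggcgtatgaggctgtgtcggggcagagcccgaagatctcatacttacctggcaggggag
RNVU1-24 (chr1:149162925-149163204, minus strand): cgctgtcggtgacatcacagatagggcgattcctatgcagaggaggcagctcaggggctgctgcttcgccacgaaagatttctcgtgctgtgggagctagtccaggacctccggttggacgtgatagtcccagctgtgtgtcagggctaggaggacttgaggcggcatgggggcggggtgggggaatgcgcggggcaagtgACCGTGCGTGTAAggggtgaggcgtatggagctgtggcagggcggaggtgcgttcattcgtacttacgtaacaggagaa
RNY1 (chr7:148987229-148987508, minus strand): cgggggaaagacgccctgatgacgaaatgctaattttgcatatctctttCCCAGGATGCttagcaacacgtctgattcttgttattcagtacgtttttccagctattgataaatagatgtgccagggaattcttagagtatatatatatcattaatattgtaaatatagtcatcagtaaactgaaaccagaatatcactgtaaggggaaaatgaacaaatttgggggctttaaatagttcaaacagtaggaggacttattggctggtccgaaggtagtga
RN7SL2 (chr14:49862830-49863109, minus strand): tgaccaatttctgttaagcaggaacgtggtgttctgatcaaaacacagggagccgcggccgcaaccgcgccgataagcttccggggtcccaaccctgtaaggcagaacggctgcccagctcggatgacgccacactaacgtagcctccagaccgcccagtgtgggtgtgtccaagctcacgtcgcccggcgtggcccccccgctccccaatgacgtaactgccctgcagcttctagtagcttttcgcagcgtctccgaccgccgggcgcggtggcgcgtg

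Most named snRNA genes had an accessible region, and few copies did. Among genes with a 5′ end more than 2 kb from protein-coding 5′ ends, 36 of 44 named snRNA genes (81.8%, interval 67.3 to 91.8%) had a strongest summit within 500 bp. The share was 47.7% within 250 bp, and 40.9% when entries with a family name or repeated symbol were counted as named. Copies had 223 of 4447 (5.01%, interval 4.39 to 5.70%). As background, 11.5% of 38449 GENCODE genes of any type had such a summit no more than 500 bp from the 5′ end. Measured around the 5′ end in that same way, the share was 81.8% of named snRNA genes and 4.16% of copies, beside 4.97% of processed pseudogenes and 19.1% of lncRNA genes. The named snRNA share lay above the background and the share of copies below it.

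The spliceosomal families differed in detail. All 3 named U1 genes, whose RNA pairs with the 5′ splice site, had a region, and all 5 named U5 genes, whose RNA contacts both exons, had a region. RNU4ATAC and RNU6ATAC, which serve the minor spliceosome, each had a region. Of 4 named U6 genes, RNU6-1 and RNU6-8 had a region, while RNU6-7 and RNU6V did not. RNU6-7 still had weaker summits at -206 and -421 bp (upstream positions are negative), in a region whose strongest summit lay farther away. Of the 2 U4 genes, RNU4-2 had a region, and a weaker summit of that same region lay inside RNU4-1. The variant U1 genes (RNVU1), relatives of U1 mostly on chromosome 1, had a region at 23 of 27 (85.2%, interval 66.3 to 95.8%). Their identity to RNU1-1 over the RNA ranged from 60.4% at RNVU1-23 to 100% at RNVU1-18 and RNVU1-29. The interval treats these related neighbours as independent genes, which they are not. The same holds for every interval over named snRNA genes that counts them. With variant U1 genes left out, named snRNA genes had 13 of 17 (76.5%, interval 50.1 to 93.2%).

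Genes for RNAs made by polymerase III outside the spliceosome were also often accessible, though few exist. Of 8 named misc_RNA genes, 6 had a region (75.0%, interval 34.9 to 96.8%). RN7SL1 and RN7SL2, which encode the RNA of the signal recognition particle, both had a region, as did RNY1 and RNY3, whose RNAs bind the protein Ro60. VTRNA1-1 and VTRNA1-3, which encode vault RNAs, had a region, and RNY4 and VTRNA1-2 had none.

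Named snoRNA and scaRNA genes were rarely accessible. Leaving out U3, U8 and U13, 6 of 382 (1.57%, interval 0.579 to 3.39%) had a region, below the share of copies and below the background. Many of the C/D genes without a region are numbered units of arrays on chromosomes 14 and 15. The interval treats such neighbours as independent genes, which they are not. The 3 C/D genes and 1 H/ACA gene among these made up 3 of 238 and 1 of 125 of their classes. SNORD118, the U8 gene, had regions on both sides of its start. A region was present at 3 of 8 named U3 genes. No named U3 gene had a summit inside it or within 500 bp upstream. The strongest summits lay downstream of the gene, 1246 bp from the start at SNORD3B-1, 978 bp at SNORD3B-2 and 989 bp at SNORD3C. SNORD3B-1 and SNORD3B-2 shared 1 region. Both U3 regions were 0% unique, a measure described further on, so their reads cannot be told apart from those of near-identical sequences. Among scaRNA genes, whose products guide modification of spliceosomal RNAs in Cajal bodies, SCARNA2 and SCARNA20 were the 2 of 19 with a region.

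**Figure D1:**
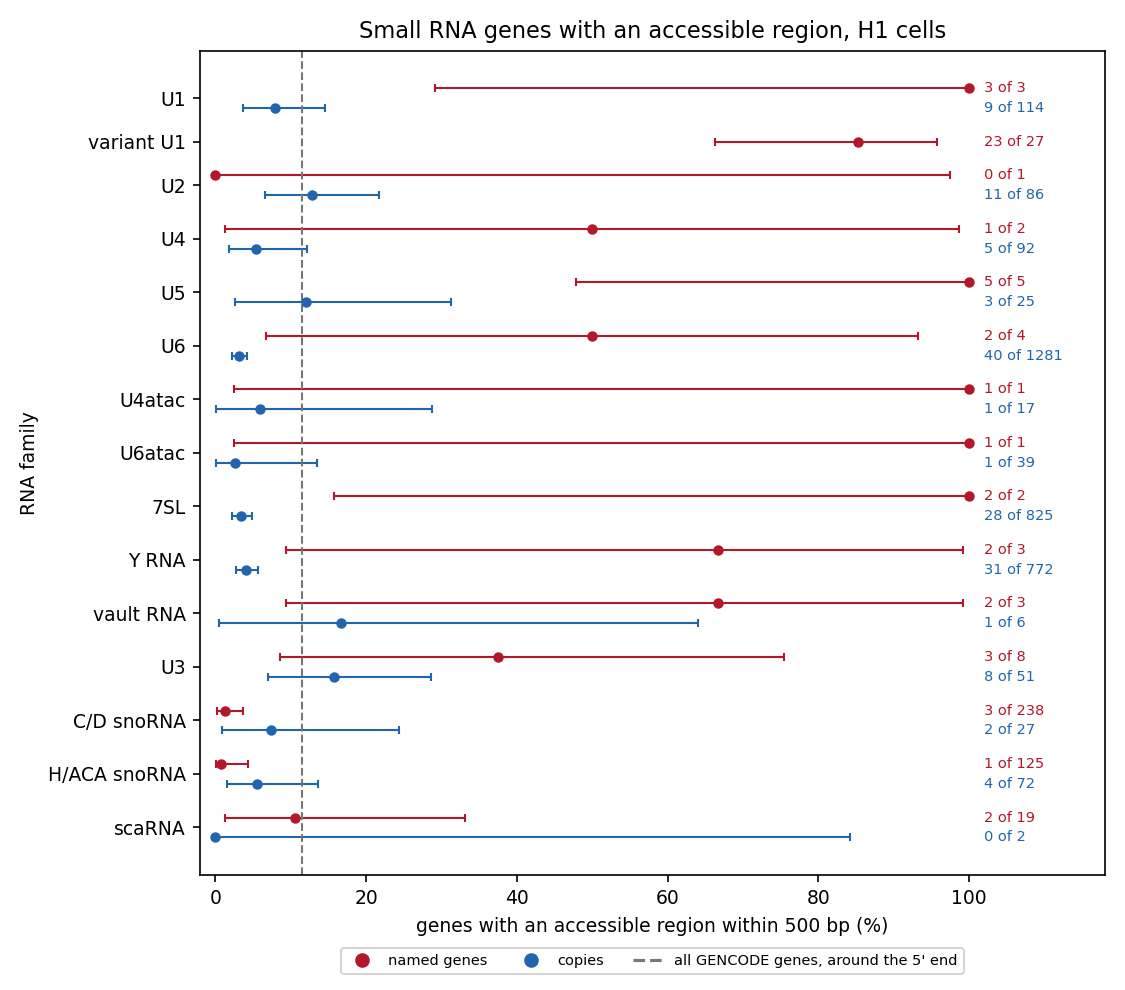
Share of genes with an accessible region within 500 bp of the gene (x axis, %) for each RNA family (y axis), with named genes in red above copies in blue. Bars are 95% exact binomial intervals, the numbers at the right give genes with a region of all genes, and the dashed line marks the 11.5% of all GENCODE genes with a summit around the 5′ end; named U1, variant U1, U5, U4atac, U6atac and 7SL genes lie at or above 85.2%, and each copy family shown lies below 20%.

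Copies were close to the genome at large. The 40 of 1281 U6 copies with a region made up 3.12% (interval 2.24 to 4.23%), against 2 of the 4 named U6 genes. For 7SL it was 28 of 825 copies (3.39%, interval 2.27 to 4.87%), for Y RNA 31 of 772 (4.02%, interval 2.74 to 5.65%), for 7SK 16 of 292 (5.48%) and for U7, which processes histone mRNA 3′ ends, 7 of 152 (4.61%). Windows of 500 bp around named genes covered 0.0167% of the genome more than 2 kb from protein-coding 5′ ends and held 0.0475% of the regions there, a ratio of 2.85 (interval 2.21 to 3.61). Windows around copies covered 0.178% and held 0.157%, a ratio of 0.881 (interval 0.769 to 1.00).

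Shares differed among kinds of copy. U3 copies had a region at 8 of 51 (15.7%, interval 7.02 to 28.6%) and U2 copies at 11 of 86 (12.8%, interval 6.56 to 21.7%), both intervals lying above the 5.01% of all copies. Some of these copies share upstream DNA with a named gene, as described further on. Without those, U3 copies had 6 of 49 (12.2%, interval 4.63 to 24.8%) and U2 copies 7 of 73 (9.59%, interval 3.94 to 18.8%). Both of these intervals include 5.01%. Of entries without a symbol, those of type snoRNA had a region at 17 of 330 (5.15%), those of type scaRNA at 0 of 28 and those of type snRNA at 0 of 3. Of 205 misc_RNA entries with no symbol, 36 had a region (17.6%, interval 12.6 to 23.5%). The 32 regions assigned to them lay at a lncRNA 5′ end in 9 cases, in a lncRNA exon in 6 and in a lncRNA intron in 8. Their nearest lncRNA genes included JPX and NEAT1, and many such entries are conserved pieces of long RNAs rather than copies of a short RNA. With these entries left out, 187 of 4242 copies had a region (4.41%, interval 3.81 to 5.07%). JPX, NEAT1 and, further on, SNHG25 were named after their values were seen.

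The strongest summit of regions at named snRNA genes often lay upstream, in a narrow interval, most of all at variant U1 genes. Of 50 regions at these genes, 29 had the strongest summit upstream, 7 inside and 14 downstream. All 29 upstream summits lay between -359 and -233 bp, with a median of -284 bp. The interval from 230 to 360 bp upstream, chosen after the positions were seen, thus held 58.0% of the strongest summits at named snRNA genes (interval 43.2 to 71.8%). It held 19 of 29 at variant U1 genes (65.5%, interval 45.7 to 82.1%) and 10 of 21 at the others (47.6%, interval 25.7 to 70.2%). It held 32 of 223 at copies (14.3%, interval 10.0 to 19.6%). An even spread over each gene's window would put 11.4% there for named snRNA genes and 11.3% for copies. At copies, 96 strongest summits lay upstream, 35 inside and 92 downstream.

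All summits, and not only the strongest, showed the same layout. Of 44 named snRNA genes, 38 had any summit within 500 bp, 36 had one upstream and 35 had one 230 to 360 bp upstream. Summits on both sides of the start occurred at 33 genes, and at 18 of these the upstream one had the higher fold. Those were 13 of 21 such variant U1 genes and 5 of 12 such genes other than variant U1. Between -200 and -50 bp neither the 17 named snRNA genes other than variant U1 nor the 27 variant U1 genes had a summit. In the 50 bp bin from -300 to -250 bp those 17 genes had 11 summits and the variant U1 genes 9. Copies had between 7 and 25 summits in each 50 bp bin from -500 to 500 bp over 4447 genes, the highest count also falling in the bin from -300 to -250 bp. Variant U1 genes had further groups of summits inside the gene, with 8 in the first 50 bp, and downstream, with 8 from 250 to 300 bp.

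**Figure D2:**
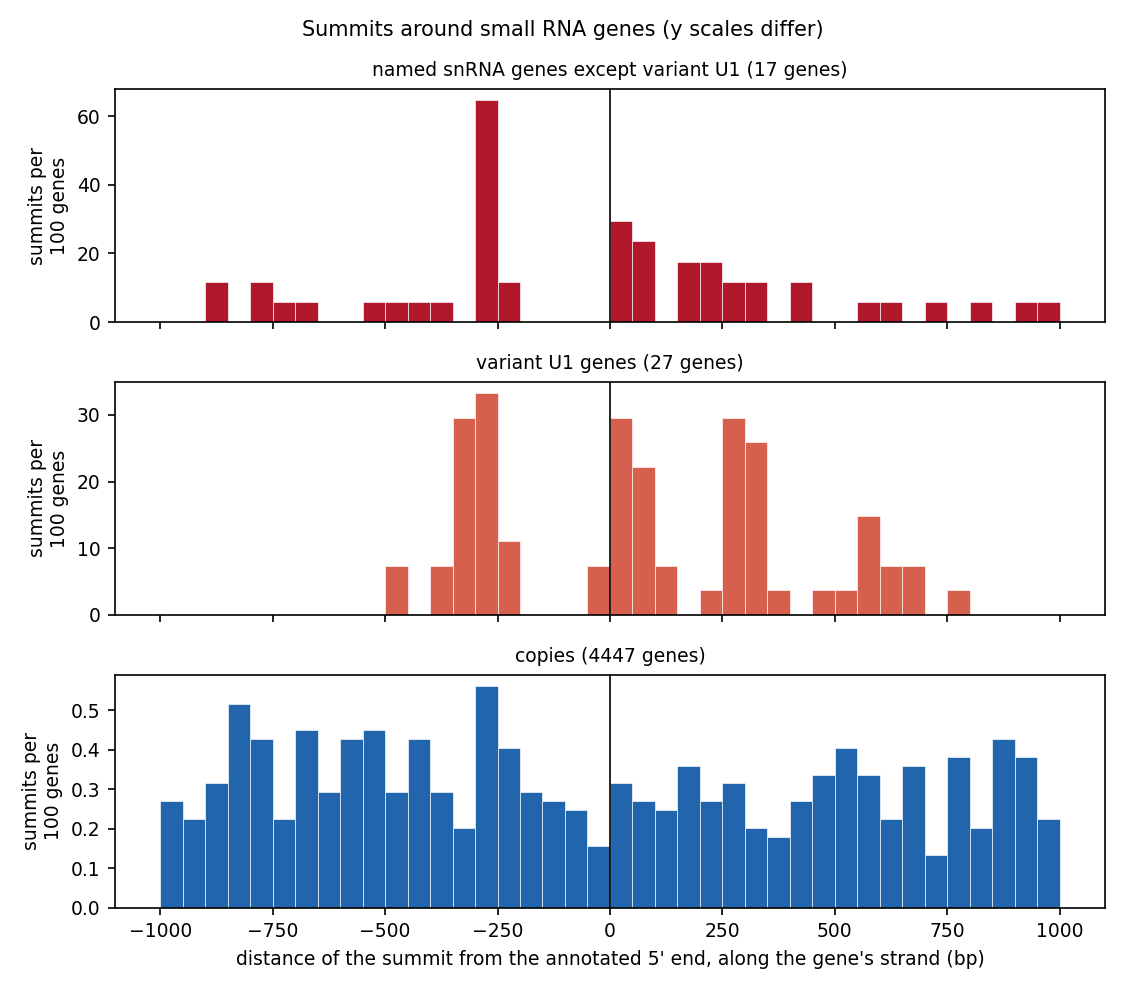
Summits per 100 genes (y axis, scales differ) in bins of 50 bp by distance from the annotated 5′ end along the gene's strand (x axis, bp), for named snRNA genes other than variant U1, variant U1 genes, and copies. The top panel peaks at 64.7 summits per 100 genes from -300 to -250 bp and is empty from -200 bp to the start, while copies lie between 0.157 and 0.562 in each bin from -500 to 500 bp.

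**Figure D3:**
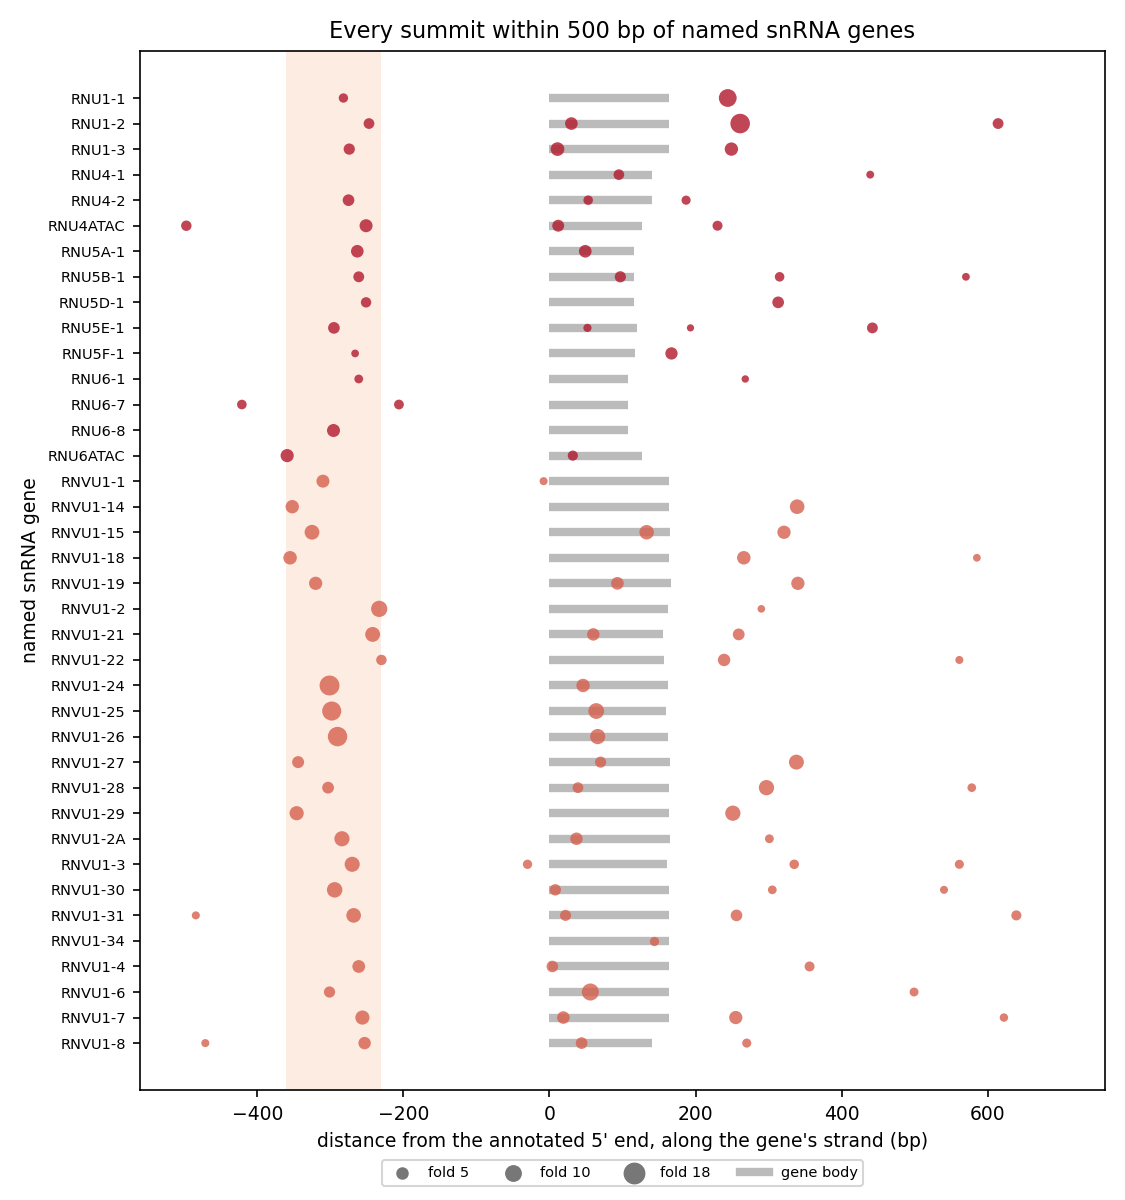
Every summit within 500 bp of the 38 named snRNA genes with any summit, by distance from the annotated 5′ end (x axis, bp), with genes in rows, gene bodies as grey bars and dot area in proportion to the authors' fold. The shaded interval is 230 to 360 bp upstream, and 35 of the genes have a dot in it.

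The proximal form lay between the upstream summit and the start, an order that the search fixed in advance. The form was sought only 80 to 40 bp upstream, and the summit was taken only from 230 to 360 bp upstream. The proximal form was present at 29 of the 36 named snRNA genes with a region (80.6%, interval 64.0 to 91.8%), starting between -65 and -48 bp with a median of -59 bp. It was present at 4 of 8 named snRNA genes without a region (50.0%, interval 15.7 to 84.3%). Counting genes with or without a region, it was present at 24 of 27 variant U1 genes (88.9%, interval 70.8 to 97.6%). At the 17 other named snRNA genes it was present at 9 (52.9%, interval 27.8 to 77.0%). It was present at 9 of 78 snRNA copies with a region (11.5%, interval 5.41 to 20.8%), at 94 of 1737 snRNA copies without a region (5.41%, interval 4.39 to 6.58%) and at 3.28% of all GENCODE genes. At the 29 genes with both the proximal form and a summit in the interval, the form began 171 to 297 bp on the gene side of that summit, with a median of 231 bp.

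No named U1 or variant U1 gene had the octamer, while many other named snRNA genes did. Of the 17 named snRNA genes other than variant U1, 10 had it within 300 bp upstream (58.8%, interval 32.9 to 81.6%). RNU1-1, RNU1-2 and RNU1-3, which are among the 17, lacked it. Of the 27 variant U1 genes 0 had it, against 2.41% of all GENCODE genes. The octamer's start lay near the upstream summit, though the search sets part of that closeness. The octamer was sought only within 300 bp upstream, and of several matches the nearest to a point in the interval was taken. At the 8 genes with both, the octamer began 22 to 75 bp on the gene side of the summit, with a median of 47.5 bp. Among snRNA copies, 10 of 78 with a region held the octamer (12.8%, interval 6.32 to 22.3%) and 60 of 1737 without a region did (3.45%, interval 2.65 to 4.42%). The 78 include U1, U2 and U5 entries that share upstream DNA with a named gene, as described further on. How far those entries account for the octamer or the proximal form among the 78 was not tested. No match says only that these exact letters were not in the window.

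Among these named genes, TATA at the stated distance occurred at RNU6-1, RNU6-7 and RNU6-8, all polymerase III genes, and at no variant U1 gene. It also occurred at RNY3, RNY4, VTRNA1-1 and VTRNA1-2, and at 5.48% of all GENCODE genes. The ZNF143-type form occurred at RNU5B-1, RNU5D-1, RNU5E-1, RNU5F-1, RNY1, RNY3, RNY4 and RN7SL1, and at 1.51% of all GENCODE genes. GTTCNANNC within the gene, a form of the B box that binds TFIIIC, was present at all 3 vault genes and RNY1. That form was present at 22.5% of all GENCODE genes, and gene length was not matched.

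Regions at named genes were stronger and wider than those at copies. The fold is the authors' enrichment of a summit over background and serves here only to describe and rank. Its median was 8.09 at named genes (10th to 90th percentile 4.02 to 13.8) and 5.12 at copies (3.21 to 10.2), beside 5.22 (3.20 to 11.4) over all 143064 regions more than 2 kb from protein-coding 5′ ends. A fold of at least 10 was reached by 22 of 68 regions at named genes (32.4%) and 26 of 223 at copies (11.7%), beside a background of 14.6%. Among the 68, it was reached by 13 of 29 at variant U1 genes (44.8%) and 2 of 21 at other named snRNA genes (9.52%). At named misc_RNA genes it was 4 of 8 (50.0%), and at named snoRNA and scaRNA genes 3 of 10 (30.0%). Median width was 746 bp at named genes and 423 bp at copies, beside 426 bp in the background. More than 1 summit was present in 52.9% of regions at named genes, 28.7% at copies and 26.1% in the background.

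Variant U1 genes made up a large share of the strong regions. Their 29 regions, 28 of them on chromosome 1, had a median fold of 9.84, while the other 39 regions at named genes had 6.99. Within that remainder, the 21 at other named snRNA genes had a median of 6.27 (10th to 90th percentile 3.55 to 8.63), the 10 at snoRNA and scaRNA genes 7.35, and the 8 at 7SL, Y and vault genes 10.0. Copies of type snRNA had a median of 5.75, those of type snoRNA 5.04 and those of type misc_RNA 4.58.

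**Figure D4:**
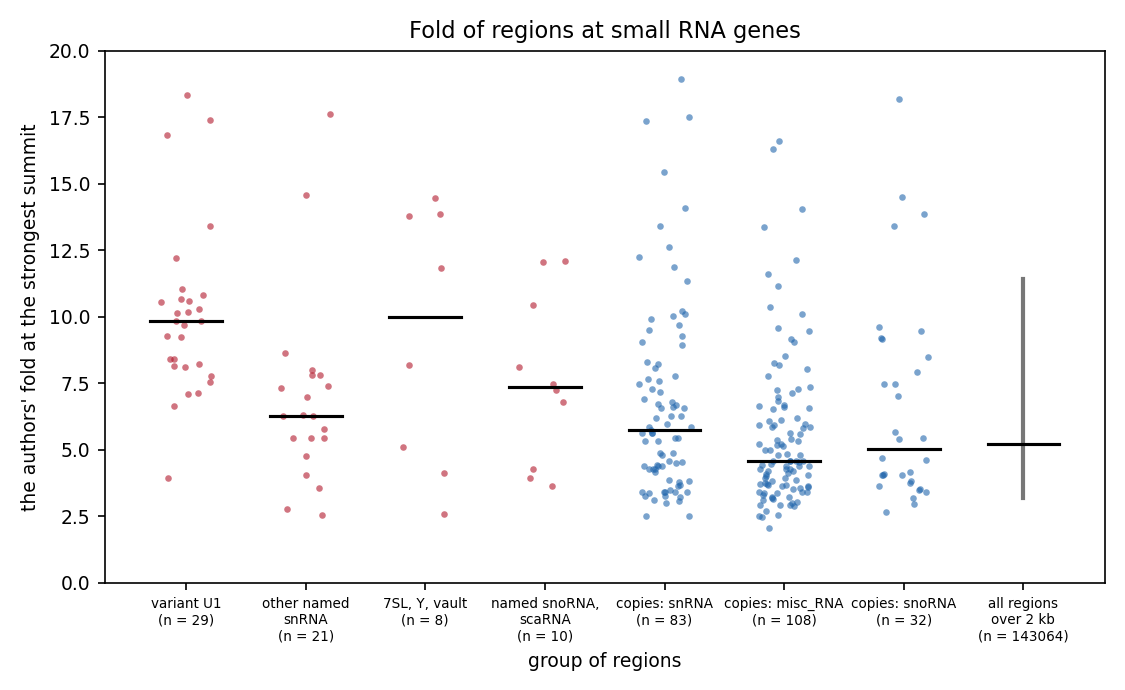
The authors' fold at the strongest summit (y axis, from 0) of each region, by class of RNA gene (x axis), with named genes in red, copies in blue and black lines at medians. The grey bar at the right spans the 10th to 90th percentile of all 143064 regions more than 2 kb from protein-coding 5′ ends (3.20 to 11.4); variant U1 genes have the highest median of the snRNA groups, at 9.84, and copies reach as high as 19.0.

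RNVU1-24, RNVU1-26 and RNVU1-25 had folds of 18.3, 17.4 and 16.8, with summits at -301, -290 and -298 bp. Each also had a weaker summit inside the gene, of fold 8.29, 10.7 and 11.5. At these genes the upstream summit was the higher one. RNVU1-6 differed, with fold 13.4 at 56 bp inside the gene and 5.81 at -301 bp. At RNVU1-18 the upstream and downstream summits had the same fold, 8.41, in 2 separate regions. RNVU1-34 on chromosome 17, outside the chromosome 1 clusters, had its only summit inside the gene, with fold 3.94. RNVU1-17, RNVU1-23, RNVU1-32 and RNVU1-33 had no summit within 500 bp.

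The main U1 genes had their strongest summit downstream or inside. RNU1-2 (chr1:16895980-16896143) had fold 17.6 at 261 bp, 7.34 at 30 bp and 5.32 at -247 bp. RNU1-1 had fold 14.6 at 244 bp and 4.05 at -282 bp. RNU1-3 had fold 8.63 at 11 bp, 8.20 at 249 bp and 5.86 at -274 bp. All 3 thus had the upstream summit of the interval, but as the weakest of those within 300 bp.

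U5 genes gave moderate values on both sides of the start. RNU5A-1 had fold 7.32 at -263 bp and 7.40 at 49 bp, in 2 regions. RNU5B-1, its neighbour on chromosome 15, had 5.46 at -261 bp and 5.79 at 97 bp. RNU5E-1 had 6.27 at -295 bp and 5.44 at 442 bp. The 2 genes on chromosome 1 near KIF2C had the downstream summit higher, with RNU5D-1 at 4.97 upstream and 6.31 downstream and RNU5F-1 at 2.76 upstream and 6.99 downstream.

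RNU4-2, RNU6-1, RNU6-8 and the minor spliceosome genes were highest upstream. RNU4-1 had no upstream summit, and its highest fold was 5.25, at 95 bp inside the gene. RNU4-2, whose RNA pairs with U6 before splicing, had fold 6.27 at -275 bp and 4.20 at 53 bp. RNU4ATAC had fold 7.81 at -251 bp and 6.53 at 12 bp, in the same region. RNU6ATAC had 7.99 at -359 bp and 4.75 at 32 bp. RNU6-8 had its only summit at -296 bp, with fold 7.79. RNU6-1 was weak, with 3.55 at -261 bp and 2.53 at 268 bp.

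Genes of the other polymerase III RNAs had different positions. RN7SL2 had fold 13.8 at -114 bp and RN7SL1 13.8 at -70 bp, nearer the start than any strongest summit upstream of a named snRNA gene. RNY1 had 14.4 at -316 bp and 4.12 at 35 bp, and RNY3 had 5.09 at -288 bp. VTRNA1-1 had 8.19 at 68 bp, inside the gene, and 7.51 at -94 bp. VTRNA1-3 had a single summit, of fold 11.8, at 57 bp inside the gene. SNORD118 had 6.80 at -251 bp and 7.45 at 49 bp, the same layout as RNU5A-1.

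Of the 10 regions at named snoRNA and scaRNA genes, 2 lay at a lncRNA 5′ end, and these had the highest folds. The summit at SNORD104 (fold 12.1) lay 59 bp from the 5′ end of SNHG25, and that at SCARNA2 (fold 12.05) lay within 1 kb of an annotated lncRNA 5′ end. SNORD124, the third with a fold of at least 10, had 10.5 in a protein-coding intron, with its summit 12482 bp from the nearest lncRNA 5′ end. Summits within 1 kb of a lncRNA 5′ end made up 19 of 68 regions at named genes (27.9%) and 20 of 223 at copies (8.97%), beside 2.87% of every 20th region more than 2 kb from protein-coding 5′ ends. Of those 19, 6 were at variant U1 genes. Regions in protein-coding introns made up 16.2% at named genes, 39.0% at copies and 42.8% in that background. A summit near a lncRNA 5′ end and near an RNA gene cannot be told apart as belonging to either.

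High folds at copies were spread over positions. Folds at copies reached 19.0, and those next in rank were ENSG00000202517 (18.2, at -238 bp), RNU6-632P (17.5, at 482 bp), a U1 entry on chromosome 1 (17.4, at -306 bp), RN7SL736P (16.6, at -357 bp), RN7SKP132 (16.3, at 205 bp), RNU6-474P (15.4, at 469 bp), SNORA72 (14.5, at 558 bp), RNU7-106P (14.1, at 403 bp) and ENSG00000274430 (14.1, at -70 bp). Of the 26 copies with fold of at least 10, 10 had the summit upstream, 4 inside and 12 downstream, and 11 lay in protein-coding introns. ENSG00000274430 lay 80 bp from the 5′ end of JPX.

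Copies that share upstream DNA with a named gene of their family were few. Copies were compared over 300 bases upstream by 16-base words, a measure chosen after the data were seen. Of 18 copies that shared at least 10% of these words with a named gene, 8 had a region (44.4%, interval 21.5 to 69.2%). Of 3755 copies under 10%, 154 had a region (4.10%, interval 3.49 to 4.79%). Of the 8, 7 had the strongest summit inside or downstream, at 28 to 657 bp, and no summit 230 to 360 bp upstream. The U1 entry on chromosome 1 was the exception. The regions of the U1 and U2 entries among the 8 were 0% unique, meaning that no 31-base word within 100 bp of the summit occurs only once in the genome, so reads of a single entry cannot be told apart from those of near-identical sequences. The 18 are not independent of each other. They include 13 U2 entries, 12 of them in an array on chromosome 17 with RNU2-1, of which 4 had a region, with folds of 5.65 to 5.86. The U1 entry on chromosome 1 named above shared 83.2% of words, and both SNORD3D entries, with overlapping coordinates, shared 98.9% and the same region. RNU1-27P and RNU1-28P on chromosome 14 were identical to RNU1-1 over 164 bases of RNA and had folds of 9.69 and 9.03, though both symbols end in P. Both regions were also 0% unique, so their reads cannot be told apart from those of near-identical sequences.

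Reads from near-identical sequences cannot be told apart, and how the authors placed such reads is not given in the sources used here. Uniqueness was the share of 31-base words within 100 bp of a summit that occur once in the genome. It had a median of 88.0% at named genes and 100% at copies, and a median of 39.8% at variant U1 genes. Under 50% unique were 23 of 68 regions at named genes (33.8%), 18 of 29 at variant U1 genes and 16 of 223 at copies (7.17%), beside 2.12% in the background. RNVU1-24 and RNU1-3 had 0% at the strongest summit. Among regions at variant U1 genes, the 18 mostly repeated had a median fold of 9.56 and the 11 others 10.2. For named snRNA genes other than variant U1, the interval 230 to 360 bp upstream was 100% unique in the median, and the gene body 53.2%. The part of repeated sequence in the values of variant U1 genes was not tested. At RNU2-1, which had no summit, the gene body and the upstream interval were 0% unique, and reads from it and from its array cannot be told apart.

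Well-known genes within 2 kb of a protein-coding 5′ end fall outside the 294 regions. RN7SK, whose RNA holds the elongation factor P-TEFb inactive, had fold 15.0 at -298 bp, and its own 5′ end lies 317 bp from that of GSTA4. RNU6-9 had 8.40 at -289 bp, RNU11 8.39 at -277 bp and RNU12 7.35 at -304 bp. RMRP and RPPH1, the RNAs of the RNases MRP and P, had 12.3 and 13.4. The strongest summits of RN7SK, RNU6-9, RNU11 and RNU12 lay in the same upstream interval. Those of RNU1-4 (9.27 at 252 bp), RNU2-2P (5.75 at 182 bp), RNU6-2 (5.29 at 63 bp), RNU7-1 (4.88 at 219 bp) and RN7SL3 (7.70 at -34 bp) did not. A protein-coding promoter this close and the RNA gene cannot be told apart.

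Genes for proteins that make and process these RNAs were accessible at their promoters. Of 53 listed genes, 47 had a strongest summit within 1 kb of the start (88.7%), against 71.4% of 20046 protein-coding genes. Among genes with such a summit the median fold was 11.3, against 9.49. With genes lacking a summit counted as fold 0, the medians were 10.2 and 7.17. The highest were BDP1, a subunit of the polymerase III factor TFIIIB, at 17.3, GAR1, an H/ACA protein, at 16.5, and SRP14, a signal recognition particle protein, at 16.5. SSB, SHQ1, POLR3G, MEPCE, HEXIM2 and SNU13 had none at the outermost annotated 5′ end.

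The distance limit at the RNA gene divided regions of like strength. Just inside 500 bp lay regions at a U2 entry (499 bp, fold 4.52), ENSG00000278324 (498 bp, 5.86) and a Metazoa_SRP entry (495 bp, 4.58). Just outside lay regions at RNU6ATAC34P (506 bp, 5.22), RN7SL174P (512 bp, 3.53) and RNU7-85P (515 bp, 3.25). At the limit from protein-coding 5′ ends, the nearest members lay at ENSG00000278773 (2362 bp, 12.1), SNORD118 (2561 bp, 6.80) and ENSG00000278852 (2616 bp, 2.88). The 3 regions outside both classes lay at Telomerase-vert, an entry within TERC, with fold 8.99, and at NRON, with 4.15 and 2.98.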

How the data were processed

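ATAC-seq of 2 samples of H1 cells was analysed through 1 deposited list in narrowPeak layout. Per the submitters' processing notes the build was GRCh38. Neither the aligner nor the peak caller, nor the treatment of multiply mapping reads, is given in the sources used here. The deposited fold ratio and −log10 p of each summit are the authors' values, as is the deposited score, which was not used. The fold described and ranked regions within the list, and −log10 p served as a filter in 1 alternative. The list gives no counts or depth per sample, so depth is unknown, and 0 columns of per-sample values were left unused.

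Rows with identical coordinates formed 1 region, which kept its summit of highest fold. Genes came from GENCODE release 44 and sequence from hg38. Each region was assigned to the nearest small RNA gene, named genes before copies in ties. Soft-masking of repeats was not analysed here. The functions were tested on simulated data. The members, lists and forms were chosen with earlier results of these data known. Genes named were those of the named snRNA and misc_RNA classes, a list of textbook genes, and the 10 strongest regions at named snoRNA and scaRNA genes and at copies, with those nearest each limit, apart from genes said to be chosen after their values were seen. Of those copies, 1 is not reported here. Python 3.11.15, pandas 2.3.3, numpy 2.4.6, scipy 1.17.1 and matplotlib 3.10.9 were used. Alternatives changed the distances, the summit used, the threshold, the classes and the treatment of repeated sequence.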

Additional observations from a re-analysis of the deposited data

How the results depend on the processing

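Of 128 alternative values for 14 results, 96 stayed within the interval or within 1.5 times the main count, and 32 did not. The results are counts, shares and medians of fold, which cannot change sign. Values that moved are given here, and the cause was not tested unless the setting itself changes what is counted. With 250 bp from the gene there were 146 regions, 32 at named genes and 112 at copies, 47.7% of named snRNA genes and 2.52% of copies had a region, and 9.52% of summits at named snRNA genes and 4.46% at copies lay 230 to 360 bp upstream, most of which that window leaves out. With 1000 bp there were 507 regions and 419 at copies, 9.13% of copies and 6.11% of named snoRNA and scaRNA genes had a region, and 7.64% of summits at copies lay in the interval. Above the median −log10 p there were 160 regions and 101 at copies, 2.41% of copies had a region, and their median fold was 7.78. Requiring overlap with the gene left 142 regions, 45 at named genes and 95 at copies, 2.20% of copies with a region, a median fold of 9.70 at named genes and 7.37% of summits at copies in the interval. With copies defined only by P or no symbol, named genes had 126 regions, a region at 40.9% of named snRNA genes and a median fold of 7.07. Counting variant U1 genes as copies left 39 regions at named genes with a median fold of 6.99, and put 20.2% of summits at copies in the interval. Leaving variant U1 genes out, a setting chosen after seeing the data, gave 39 and 6.99. Leaving out mostly repeated sequence gave 45 regions at named genes. With lncRNA 5′ ends within 500 bp, 4.48% of regions at copies lay at such an end. No paired analysis was possible because both samples share 1 list with no values per sample, and for the same reason no replicate could be left out.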
